A study of Mus musculus with 17 samples.

Results

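Sorted mouse cortical cells of different ages were compared: GFP-positive cells at embryonic day 18 (E18, n = 4 arrays) and GFP-high cells at embryonic day 14 (E14, n = 4 arrays), both also selected for Prominin. They were chosen by the age and the sort gates in the sample titles, and are 8 of the 17 arrays of the series. All embryos carried the hGFAP-eGFP transgene, in which the human GFAP promoter drives enhanced green fluorescent protein (GFP), and the labels name no other allele and no treatment. The other arrays hold E14 cells with low GFP, with the same Prominin selection (n = 3) or with none named (n = 3), and E14 GFP-high cells with no Prominin gate named (n = 3), called ungated here. The E18 titles name a GFP-positive gate and the E14 titles a high one, so age and GFP gate cannot be told apart. Neither the number of embryos pooled per sample nor the litters are given, so the p-values reflect how far the arrays of a group differ and may cover technical variation alone. The comparison addresses how the transcriptome of cells in the radial glia sort differed between mid-neurogenesis and the end of embryonic life.

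Radial glia line the ventricle of the embryonic cortex, extend a long process to the brain surface, and act as its neural stem and progenitor cells. Around mid-gestation they divide to give neurons, directly or through basal progenitors, and deep-layer neurons are born before upper-layer neurons. Towards birth neurogenesis ends and the same lineage turns to making astrocytes and oligodendrocytes. Prominin is a membrane protein of the apical surface, where radial glia touch the ventricle, and is encoded by Prom1.

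Levels below are log2 intensities of 1 probe set per gene after a pseudocount of 16 and quantile normalization, and differences are E18 minus E14 with a standard error (SE). The median level of all 18193 genes was 6.29. A level of 5.69 was the 90th percentile of 22 genes not expected in brain, and no fold change is given where the lower group lay below it. An array's intensity depends on its probes, so levels are compared between groups and never between genes.

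The array controls differed between the ages. The 18S ribosomal RNA signal, taken as the mean log2 deposited signal of the 18S control probe sets, read 9.23 to 10.46 at E18 and 11.70 to 12.71 at E14. The ages did not overlap (two-sided exact permutation p = 0.0286, the smallest possible with 4 against 4 arrays, and 0.105 after adjustment over 11 control signals). The signal of the 3′ over the 5′ Gapdh probe set as a log2 difference, a measure of how far labelling ran along the transcript, was −0.21 to 1.00 at E18 and 0.54 to 1.71 at E14 (exact permutation p = 0.0571, adjusted p = 0.126). The lowest of the E14 values, 0.54, was that of replicate 1, which lay within the E18 range. The dap poly-A control read 10.04 to 11.44 at E18, above that range on E14 replicate 1, and only 2.18 to 4.48 on E14 replicates 2 to 4. The bioC and bioD controls were higher at E18, also without overlap (exact permutation p = 0.0286 and adjusted p = 0.105 for each). For bioD the ranges were 12.25 to 12.71 at E18 and 11.75 to 11.98 at E14. The ungated E14 GFP-high arrays read 7.95 to 9.53 for 18S and −0.21 to −0.19 for Gapdh, within or below the E18 range, and serve as a second reference. Their Actb 3′ over 5′ difference and their dap, lys, phe and thr controls also lay within or below it. They were not matched to E18 on the other controls. Their cre signals were 14.53 to 15.17, above the 14.07 to 14.50 of E18. For bioB, bioC and bioD they reached 10.15, 11.75 and 13.37, against at most 9.29, 10.84 and 12.71 at E18. The part of these control differences in the gene differences was not tested, beyond a fit with the Gapdh difference as a covariate, in which 3657 genes passed the threshold in place of 4850.

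**Figure D1:**
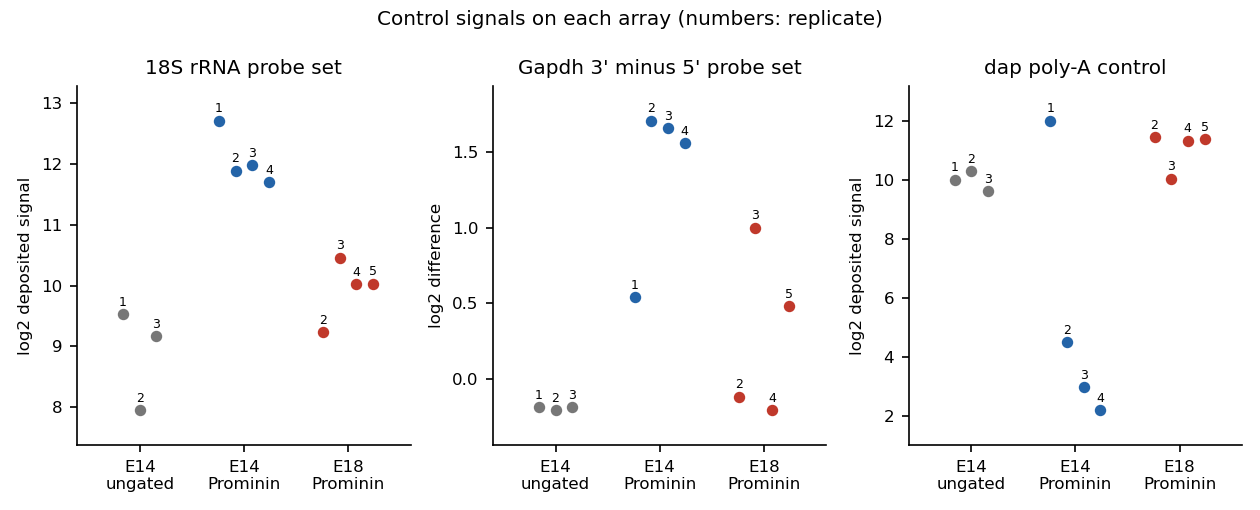
Control signals on each array of the 4 E18 arrays, the 4 Prominin-selected E14 GFP-high arrays and the 3 ungated E14 GFP-high arrays, as log2 deposited signal (18S and dap) or as a log2 difference (Gapdh), with replicate numbers beside the points. The 18S value is the mean over the 18S control probe sets. The 18S signals of E18 (9.23 to 10.46) and E14 (11.70 to 12.71) do not overlap, and E14 replicate 1 stands apart from replicates 2 to 4 in Gapdh and dap.

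Between the ages, 1850 of 18193 genes rose (10.2%) and 3000 fell (16.5%), so 26.7% of all genes passed the threshold (limma, Benjamini-Hochberg adjusted p under 0.05). Without adjustment, 6595 genes had p under 0.05. The 2 groups of 4 arrays did not overlap for 5270 genes (29.0%). Of the called genes, 718 rose and 1061 fell by at least 2-fold, and 95 rose and 97 fell by at least 4-fold. The median difference of all genes was −0.07, and it was −0.24 when each array was centred on its median in place of quantile normalization, which left 21.3% of the calls on the higher side in place of 38.1%. Arrays correlated with Pearson's r of 0.975 to 0.980 within E18, 0.963 to 0.983 within E14 and 0.921 to 0.947 between the ages, across genes.

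**Figure D2:**
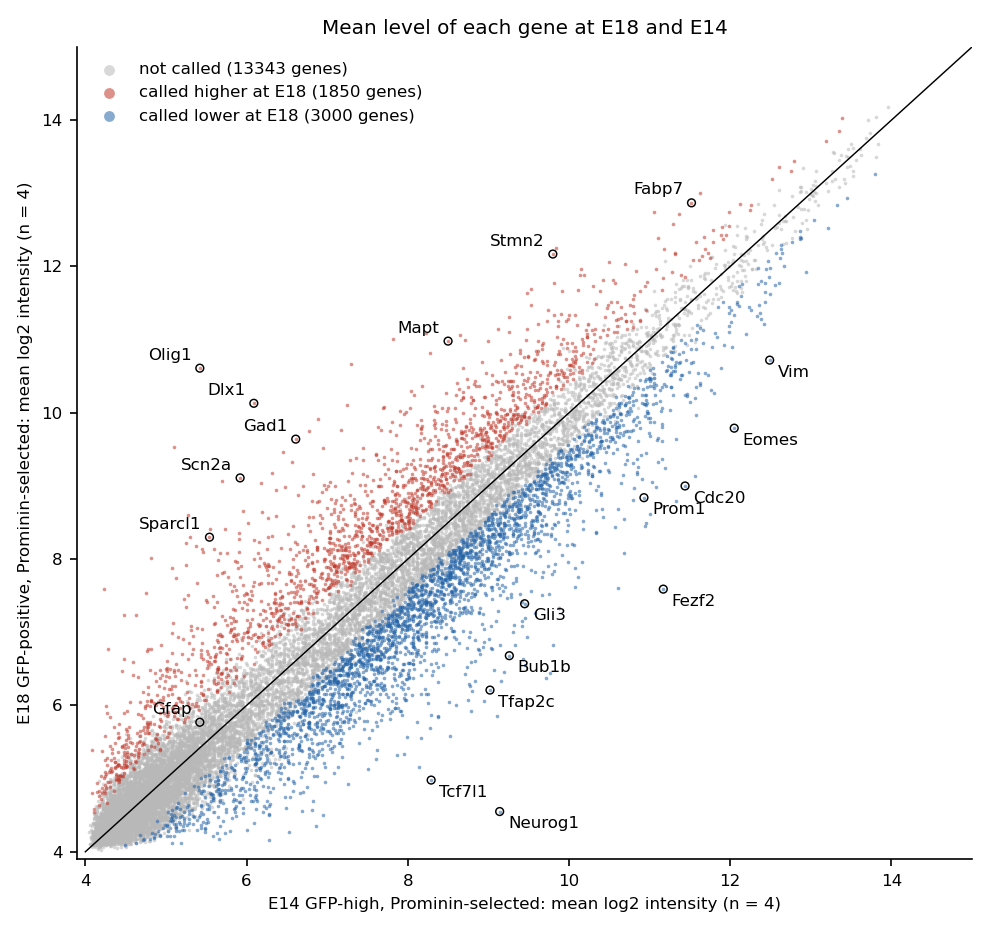
Mean log2 intensity of each of 18193 genes in E14 GFP-high cells (horizontal) and E18 GFP-positive cells (vertical), both Prominin-selected, with the line of equal levels. Genes called higher at E18 (1850) are red, those called lower (3000) blue and the rest grey, and Olig1 and Neurog1 lie farthest from the line among the labelled genes.

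The sort marker itself was lower at E18. Prom1 read 8.69, 8.84, 8.74 and 9.08 on the 4 E18 arrays and 10.91, 10.81, 10.97 and 11.02 on the 4 E14 arrays, a 4.26-fold fall (−2.09 ± 0.13 SE, adjusted p = 8.62e-07). The lowest E14 array was well above the highest E18 array. Fewer cells of a type and less RNA per cell cannot be told apart in such bulk samples, here or below. Defining radial glia genes were above the floor at both ages: Sox2 was at 9.90 and 10.24 (adjusted p = 0.173, and 0.0166 with median centring) and Nes, encoding nestin, at 6.87 and 7.87 (adjusted p = 0.00157), both named as a check of the label. The Nes call was lost in 4 alternative settings, among them the mean of its 3 probe sets (−0.28, adjusted p = 0.350) and the fit of the 8 arrays alone (−0.07, adjusted p = 0.881). Of 28 radial glia genes, 17 fell and 6 rose, where 16.5% and 10.2% of all genes did. The median of the 28 was −0.92, against −0.07 over all genes.

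Those that fell included the progenitor transcription factors and the intermediate filament of the radial fibre. Pax6, which drives cortical neurogenesis, read 8.04, 8.14, 8.25 and 8.39 at E18 and 9.63, 9.63, 9.94 and 10.30 at E14 (3.18-fold lower, adjusted p = 2.15e-05). The groups were apart by more than a unit, but only 1 of its 5 probe sets was called, and the call was lost with the mean of the probe sets. Vim, encoding vimentin, read 10.34, 10.43, 10.98 and 11.14 at E18 and 12.11, 12.42, 12.65 and 12.77 at E14 (3.40-fold lower, adjusted p = 5.78e-05). Nr2e1, also known as Tlx and needed for neural stem cell maintenance, fell by 2.58 on the log2 scale, from 8.60 ± 0.14 to 6.01 ± 0.20 (SD, n = 4 each, adjusted p = 1.11e-06). Sox9 fell 2.88-fold (8.02 ± 0.23 to 6.49 ± 0.25, adjusted p = 3.33e-05), and Gja1, encoding the main gap junction protein of radial glia, fell 4.92-fold (9.31 ± 0.24 to 7.01 ± 0.33, adjusted p = 6.36e-06). Phgdh, the first enzyme of serine synthesis, fell 2.82-fold (adjusted p = 8.29e-05). Sox3, a SoxB1 factor of neural progenitors and no member of that list, was among the largest falls of all genes, at 5.78, 5.96, 6.22 and 6.29 at E18 against 9.25, 8.89, 8.68 and 8.93 at E14 (7.34-fold, adjusted p = 4.90e-07).

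Other radial glia genes were higher at E18 than in the Prominin-selected E14 cells. Fabp7, encoding brain lipid-binding protein, read 12.88, 12.53, 12.98 and 13.10 at E18 and 11.28, 11.44, 11.55 and 11.80 at E14 (2.55-fold higher, adjusted p = 0.000108). Slc1a3, encoding the glutamate transporter GLAST, read 8.79, 9.10, 9.31 and 9.71 at E18 and 7.68, 8.46, 8.55 and 8.42 at E14 (1.93-fold higher, adjusted p = 0.0125). Neither gene's groups overlapped, though the gap for Slc1a3 was small and its call was lost with median centring (adjusted p = 0.0516) and with a replicate block. Ptprz1, a receptor phosphatase of radial glia and oligodendrocyte precursors, rose 4.44-fold (9.48 ± 0.21 to 11.64 ± 0.25, adjusted p = 2.64e-06), and Cdh2, encoding N-cadherin, rose 2.52-fold (adjusted p = 0.000837). Against the ungated E14 cells Slc1a3 and Ptprz1 also rose (0.93 and 0.82, log2). Fabp7 and Cdh2 were not called there (−0.48 and −0.17). Of the 28 genes 3 rose and 20 fell in that comparison, where 13.7% and 16.9% of all genes did. The mean level over the 28 genes was 8.18 to 8.50 on the E18 arrays and 8.83 to 9.14 on the Prominin-selected E14 GFP-high arrays. Gfap, whose human promoter drives the reporter, read 5.95, 5.47, 5.46 and 6.21 at E18 and 5.14, 5.30, 5.73 and 5.52 at E14, at or near the floor and overlapping (0.35 ± 0.30, adjusted p = 0.455).

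**Figure D3:**
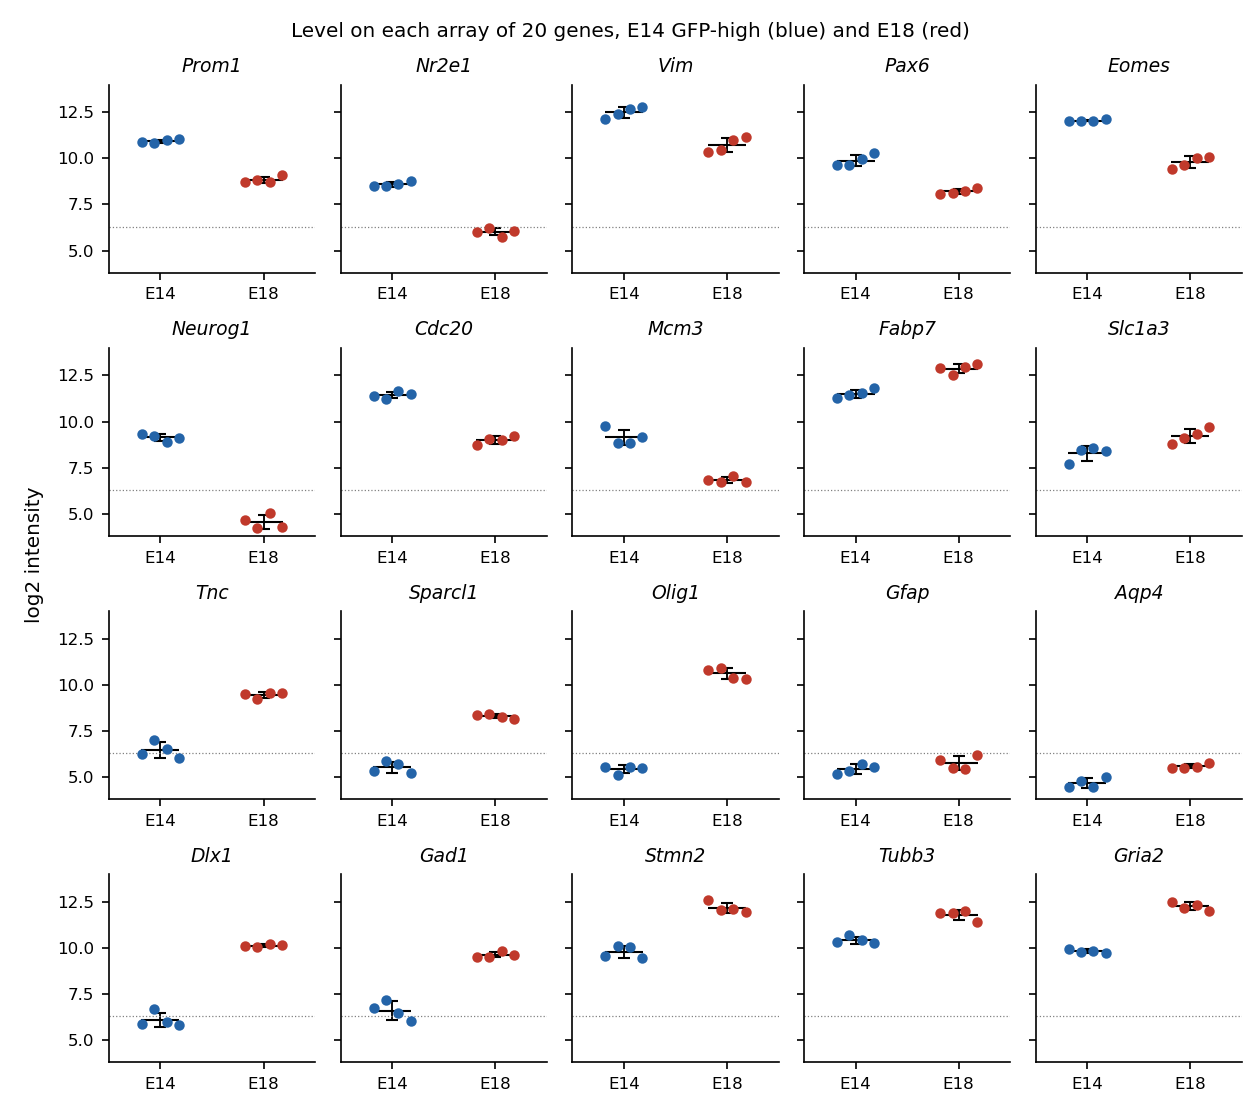
Log2 intensity of 20 genes on each of the 4 E14 GFP-high (blue) and 4 E18 (red) arrays, with mean and SD, and the median level of all genes (6.29) as a dotted line. The groups do not overlap in 19 of the genes, and in Gfap they do.

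Genes of basal progenitors, the dividing cells that radial glia produce and that give most cortical neurons, were mostly lower: 15 of 19 fell and 1 rose, with a median of −1.38. Over all genes, 16.5% fell and 10.2% rose. Neurog1, a proneural bHLH factor, had the largest fall of all genes that met the naming rule. It read 4.68, 4.21, 5.05 and 4.26 at E18, below the floor on every array, and 9.31, 9.22, 8.91 and 9.10 at E14 (−4.59 ± 0.20, adjusted p = 1.25e-07). Eomes, also known as Tbr2 and the defining factor of basal progenitors, read 9.43, 9.61, 10.03 and 10.07 at E18 and 12.02, 12.03, 12.03 and 12.11 at E14 (4.79-fold lower, adjusted p = 1.54e-06). Neither gene's groups overlapped, and the E14 arrays agreed closely for Eomes.

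Tfap2c, the AP2γ transcription factor, read 5.90, 6.22, 5.86 and 6.84 at E18 and 8.81, 9.04, 9.16 and 9.07 at E14 (7.03-fold lower, adjusted p = 6.52e-06). Nhlh1, a bHLH factor of newly born neurons, fell 5.79-fold (adjusted p = 3.35e-06), and Gadd45g, a growth arrest gene of the same neurogenic wave, fell 5.51-fold (adjusted p = 6.52e-06). Btg2, an antiproliferative gene that marks neurogenic divisions, fell by less, 1.72-fold (adjusted p = 0.00169). The one member that rose was Pou3f2, also known as Brn2 and later expressed by upper-layer neurons, from 7.61 ± 0.39 to 9.43 ± 0.37 (3.53-fold, adjusted p = 0.000120).

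Every measured gene of the G2 and M phases of the cell cycle was lower at E18: 28 of 28 fell, with a median of −1.38, where 16.5% of all genes fell. Cdc20, an activator of the anaphase-promoting complex, read 8.72, 9.08, 9.01 and 9.19 at E18 and 11.40, 11.23, 11.65 and 11.49 at E14 (5.43-fold lower, adjusted p = 7.20e-07). Bub1b, of the spindle checkpoint, read 6.36, 6.92, 6.73 and 6.73 at E18 and 9.29, 9.05, 9.36 and 9.34 at E14 (5.96-fold lower, adjusted p = 7.21e-07). The arrays within each age lay close together, so the gap was larger than the spread within either age. Ccnb2, a mitotic cyclin, fell 4.46-fold (adjusted p = 1.11e-06), and Tpx2, a spindle assembly factor, 3.44-fold (adjusted p = 3.33e-06). Cdc25c, a phosphatase of mitotic entry that the list does not hold, fell from 8.52 ± 0.24 to 5.58 ± 0.35, the latter below the floor (−2.94 ± 0.21, adjusted p = 1.87e-06). Between 22 and 28 of the 28 genes fell in each of the 21 alternative settings.

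Many promoters of G2 and M genes are known to carry CCAAT boxes and a cell cycle genes homology region (CHR), elements through which these genes are switched together. Of the 28 genes, 24 had an entry in a RefSeq promoter table (GRCm38.p6, 250 bases before to 50 after the start), with 25 promoters. CCAAT, searched on both strands, was in 22 of these (88%), against 37.4% of the 32851 promoters of the table. TTTGAA, the core of the CHR, searched likewise, was in 20 (80%), against 17.9%, and both were in 19 (76%), against 6.95%. In 30 promoters of 25 S phase genes the shares were 56.7% for CCAAT and 10% for TTTGAA. A match is a description of the letters, not a bound site. The 3 stretches printed here show the 150 bases before the start on the gene's own strand for the G2/M genes with the lowest p among the 7 that held both motifs there, which brings in Top2a and Mki67 after their values were seen, and capitals mark CCAAT and TTTGAA on either strand. Promoters of 1 chromosome were left out of this count of 7 and of the choice.
Cdc20, chr4:118437344-118437493, minus strand: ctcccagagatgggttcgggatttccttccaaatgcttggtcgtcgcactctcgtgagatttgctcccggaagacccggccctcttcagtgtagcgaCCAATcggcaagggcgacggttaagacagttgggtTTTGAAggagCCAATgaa
Top2a, chr11:99024190-99024339, minus strand: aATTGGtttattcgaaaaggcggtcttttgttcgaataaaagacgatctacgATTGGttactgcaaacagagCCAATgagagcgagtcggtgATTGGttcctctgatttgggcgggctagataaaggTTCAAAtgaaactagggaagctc
Mki67, chr7:135716380-135716529, minus strand: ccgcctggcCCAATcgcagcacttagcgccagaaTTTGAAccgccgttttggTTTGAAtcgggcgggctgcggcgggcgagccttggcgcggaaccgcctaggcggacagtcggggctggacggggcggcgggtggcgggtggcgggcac
Cdc20 holds 2 CCAAT and 1 TTTGAA in this stretch, Top2a 4 and 1, and Mki67 1 and 2. Top2a, encoding a DNA topoisomerase of dividing cells, was at 8.69 ± 0.23 at E18 and 10.41 ± 0.31 at E14 (SD, n = 4, adjusted p = 3.86e-05), and Mki67, a widely used proliferation marker, at 9.04 ± 0.33 and 10.64 ± 0.23 (adjusted p = 7.15e-05).

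Genes of DNA replication followed, with 25 of 29 S phase genes lower, none higher and a median of −1.10, where 16.5% of all genes fell. Mcm3, of the replicative helicase, read 6.81, 6.71, 7.06 and 6.70 at E18 and 9.74, 8.82, 8.85 and 9.14 at E14 (−2.32 on the log2 scale, adjusted p = 1.06e-05). Cdt1, which loads that helicase, fell 3.71-fold (adjusted p = 8.57e-06), and Tk1, encoding thymidine kinase, 3.99-fold (adjusted p = 8.74e-05). Of 20 regulators of G1 and cell cycle exit, 9 fell and 2 rose, where 16.5% and 10.2% of all genes did. The rises were thus near the share over all genes. With median centring 13 fell and 1 rose. Ccne1, encoding cyclin E1, fell 3.71-fold (7.97 ± 0.18 to 6.08 ± 0.11, adjusted p = 2.91e-06). Ccnd1, encoding cyclin D1, fell 2.33-fold (adjusted p = 0.000185), and its partner kinase gene Cdk4 fell 2.32-fold (adjusted p = 0.000238). The inhibitor gene Cdkn1c, encoding p57, was lower too, at 9.38, 9.80, 8.92 and 8.75 at E18 and 10.56, 10.32, 10.29 and 10.34 at E14 (2.24-fold, adjusted p = 0.00118).

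Among Notch genes, whose signalling keeps radial glia undifferentiated, 13 of 29 fell and 4 rose (median −0.47), where 16.5% and 10.2% of all genes did. Of the receptors, Notch1 read 8.34, 8.55, 8.68 and 8.63 at E18 and 10.77, 10.56, 10.82 and 10.58 at E14 (4.38-fold lower, adjusted p = 1.12e-06), and Notch3 fell 4.20-fold (adjusted p = 2.29e-06). Mfng, encoding the Fringe enzyme that modifies Notch, fell 5.49-fold (10.08 ± 0.32 to 7.62 ± 0.36, adjusted p = 4.45e-06). Of the targets, Hey1 fell 3.86-fold (adjusted p = 4.19e-05) and Nrarp, a feedback inhibitor, 2.56-fold (adjusted p = 8.68e-05). Hes5 fell 2.93-fold (8.00 ± 0.68 to 6.45 ± 0.36, adjusted p = 0.00486) and Hes1 2.11-fold (adjusted p = 0.00558), but both calls were lost with the Gapdh difference as a covariate. The members that rose included Dner, a neuronal surface protein related to Notch ligands (2.52-fold, adjusted p = 9.46e-05), and Nrp1, a receptor for semaphorins and VEGF that the list also holds (2.72-fold, adjusted p = 0.00131). The Nrp1 call was lost when only the 8 arrays were normalized and fitted, with its probe set chosen anew over them.

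Of 13 Hedgehog pathway genes, 8 fell and 1 rose (median −1.05), where 16.5% and 10.2% of all genes did. The co-receptor genes fell together, Cdon to 8.50, 8.61, 8.84 and 8.55 from 10.91, 10.81, 11.12 and 11.15 (5.18-fold, adjusted p = 8.62e-07), Boc 4.28-fold (adjusted p = 2.77e-06) and Gas1 4.38-fold (adjusted p = 0.000158). Gli2 and Gli3, the transcription factors of the pathway, fell 5.02-fold and 4.18-fold (adjusted p = 1.11e-06 and 6.36e-06), and Smo, the signal transducer, fell 2.63-fold (adjusted p = 7.03e-05). Ptch1, which encodes the Hedgehog receptor and is itself a target, was the 1 gene that rose, from 7.27 ± 0.08 to 8.32 ± 0.24 (2.07-fold, adjusted p = 0.000179), with 1 of 3 probe sets called and the call lost with the mean of its probe sets (adjusted p = 0.0503). Against the ungated E14 cells Ptch1 was not called (0.41 on the log2 scale, adjusted p = 0.0918).

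In the Wnt list 14 of 35 genes fell and 6 rose (median −0.22), where 16.5% and 10.2% of all genes did. Of the Frizzled receptor genes, Fzd8 read 6.11, 5.62, 5.88 and 5.87 at E18 and 8.35, 8.25, 8.17 and 8.38 at E14 (5.34-fold lower, adjusted p = 7.20e-07) and Fzd2 was 4.60-fold lower (adjusted p = 1.03e-06). Tcf7l1, a transcription factor of the pathway that mostly represses, read 4.65, 5.98, 4.67 and 4.62 at E18 and 8.15, 8.04, 8.51 and 8.44 at E14 (−3.31 ± 0.30, adjusted p = 8.15e-06). E18 replicate 3 alone lay above the floor. Nkd1, a feedback inhibitor of Wnt signalling, fell 7.09-fold (adjusted p = 4.79e-07) and Sfrp1, a secreted antagonist, 3.44-fold (adjusted p = 2.63e-06). Dact1, an intracellular modulator, rose 2.58-fold (adjusted p = 7.86e-05).

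Transcription factors that pattern the dorsal telencephalon were mostly lower: 11 of 18 fell and 3 rose (median −1.21), where 16.5% and 10.2% of all genes did. Dmrta2 fell 3.49-fold (10.90 ± 0.16 to 9.09 ± 0.13, adjusted p = 6.31e-06), Dmrt3 from 7.95 ± 0.17 to 5.33 ± 0.30 (adjusted p = 2.15e-06) and Otx1 from 7.56 ± 0.25 to 5.66 ± 0.17 (adjusted p = 1.58e-05), the last 2 to below the floor. Genes known to mark early progenitors fell in 9 of 19 cases and rose in 1, against the same shares of all genes. In 5 of the 19 both group means lay at or below the floor. Hmga2, a chromatin protein of young stem cells, read 5.77, 5.89, 5.51 and 5.70 at E18 and 7.30, 7.54, 7.79 and 7.85 at E14 (3.74-fold lower, adjusted p = 8.52e-06). The mRNA-binding protein genes Igf2bp1 and Igf2bp3 fell 3.42-fold and 2.33-fold (adjusted p = 4.77e-05 and 3.86e-05). Fezf2, which specifies deep-layer projection neurons and is also expressed by young progenitors, read 6.57, 7.47, 8.42 and 7.89 at E18 and 11.63, 11.08, 10.99 and 10.99 at E14 (−3.59 on the log2 scale, adjusted p = 7.63e-06). The E18 arrays spread over almost 2 units, yet the highest lay far below the lowest E14 array.

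The glial lists moved in both directions, and their members are given by role. In the astroglial list 17 of 51 genes rose and 10 fell (median 0.28), where 10.2% and 16.5% of all genes did. With median centring 12 rose and 12 fell (median 0.21). The largest rise was in Tnc, encoding the matrix protein tenascin C, at 9.48, 9.22, 9.57 and 9.55 at E18 and 6.26, 7.01, 6.52 and 6.01 at E14 (8.03-fold, adjusted p = 1.51e-06). Sparcl1, encoding the secreted protein hevin, read 8.38, 8.39, 8.25 and 8.16 at E18 and 5.31, 5.86, 5.73 and 5.24 at E14 (2.76 ± 0.17, adjusted p = 7.20e-07). Id3, a target of BMP signals, read 6.54, 6.85, 6.60 and 7.10 at E18 and 5.04, 4.99, 4.75 and 4.51 at E14, below the floor (1.95 ± 0.25, adjusted p = 0.000104). None of these 3 genes overlapped between the ages.

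Apoe, the apolipoprotein of astrocytes, rose 2.70-fold (adjusted p = 0.00232), a call lost with the Gapdh difference as a covariate. Aqp4, the water channel of astrocyte endfeet, was at 5.58 ± 0.11 at E18 and 4.68 ± 0.25 at E14, without overlap (0.90 ± 0.16, adjusted p = 0.000985), so that it was called although both group means lay below the floor. Only 1 of its 3 probe sets was called, and Aqp4 was not called against the ungated E14 cells (0.43 ± 0.23, adjusted p = 0.177). On the other side, Fgfr3 fell 2.68-fold (adjusted p = 6.41e-05), as did Aldoc, the glycolytic enzyme of radial glia and astrocytes, 2.57-fold (adjusted p = 0.000162). In the list of FGF and EGF signalling 6 of 24 genes rose and 5 fell, where 10.2% and 16.5% of all genes did, and with median centring 4 rose and 6 fell. Spry2, a feedback inhibitor of receptor tyrosine kinases, rose 3.98-fold (adjusted p = 4.35e-05), and Dusp6 of the same feedback rose 2.05-fold (adjusted p = 0.00692).

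Among 24 factors known for the switch to gliogenesis, 4 rose and 6 fell, near the shares over all genes (10.2% and 16.5%), and the list's median of 0.04 changed sign with median centring (−0.23). Zbtb20, a zinc finger repressor of astrocyte and neuron subtype development, read 10.38, 10.26, 10.94 and 10.84 at E18 and 8.73, 8.61, 8.75 and 8.62 at E14 (3.81-fold higher, adjusted p = 1.47e-05), with all 9 of its probe sets called higher. Cntfr, a receptor for the cytokines that induce astrocytes, fell from 7.15 ± 0.27 to 5.67 ± 0.26 (adjusted p = 9.13e-05). Nfia was called lower (1.62-fold, adjusted p = 0.00279), but of its 6 probe sets 1 was called higher and 2 lower.

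Oligodendrocyte lineage genes rose in 9 of 22 cases and fell in 1 (median 0.57), where 10.2% and 16.5% of all genes did. Olig1, a bHLH factor of oligodendrocyte precursors, had the largest rise of all genes that met the naming rule: it read 10.82, 10.93, 10.38 and 10.32 at E18 and 5.54, 5.11, 5.57 and 5.49 at E14, below the floor on each E14 array (5.19 ± 0.29, adjusted p = 4.90e-07). Olig2, its relative, read 7.75, 8.56, 7.51 and 7.86 at E18 and 5.33, 4.46, 5.57 and 5.65 at E14 (2.67 ± 0.29, adjusted p = 3.46e-05). Pdgfra, the growth factor receptor of oligodendrocyte precursors, read 8.29, 8.20, 7.05 and 6.81 at E18 and 4.23, 4.16, 4.45 and 4.07 at E14 (3.36 ± 0.33, adjusted p = 1.60e-05). E18 replicates 2 and 3 were more than a unit above replicates 4 and 5 for Pdgfra, and 1 of its 3 probe sets was called. With a pseudocount of 1 in place of 16 its direction turned (−0.63, adjusted p = 0.586). Opcml, a cell adhesion gene, rose 6.47-fold (adjusted p = 4.28e-06), and Tnr, encoding tenascin R, rose from 4.48 ± 0.15 to 6.63 ± 0.43 (adjusted p = 1.98e-05).

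Matrix genes and their receptors rose in 16 of 49 cases and fell in 7 (median 0.23), where 10.2% and 16.5% of all genes did. Against the ungated E14 cells 11 rose and 14 fell (median −0.06), where 13.7% and 16.9% of all genes did. The direction of this list thus depends on the reference. Besides Tnc, Tnr and Sparcl1, Gpc2, a glypican of growing axons, rose 3.02-fold (adjusted p = 6.09e-05), while the glypican genes Gpc4 and Gpc1 fell 4.08-fold and 3.39-fold (adjusted p = 8.79e-06 and 4.85e-06). Gpc2 did not differ past the threshold from the ungated cells (0.09 ± 0.26, adjusted p = 0.847). Tnc, Tnr and Sparcl1 rose against them by 1.69, 1.81 and 2.42 (log2), and Gpc4 and Gpc1 fell (adjusted p = 3.32e-07 and 3.19e-08). The difference between the references was not tested. Of 31 genes of apical junctions and polarity, 12 fell and 7 rose, where 16.5% and 10.2% of all genes did, and with median centring 16 fell and 4 rose. Celsr1, a cadherin of planar polarity, read 6.55, 7.33, 7.85 and 7.58 at E18 and 9.72, 9.88, 10.03 and 9.89 at E14 (5.87-fold lower, adjusted p = 1.09e-05), and Pard3, of the apical Par complex, fell 2.23-fold (adjusted p = 0.000136).

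Neuronal genes were higher in the E18 sort. Of 26 genes of postmitotic neurons 17 rose and 3 fell (median 0.64), where 10.2% and 16.5% of all genes did. Stmn2, a microtubule regulator of growing axons, read 12.58, 12.04, 12.10 and 11.97 at E18 and 9.58, 10.12, 10.05 and 9.47 at E14 (5.16-fold, adjusted p = 5.49e-06). Mapt, encoding tau, read 11.08, 10.99, 11.11 and 10.72 at E18 and 8.74, 8.76, 8.47 and 8.04 at E14 (5.57-fold, adjusted p = 3.53e-06). Tubb3, the neuronal tubulin, read 11.92, 11.89, 12.02 and 11.42 at E18 and 10.34, 10.68, 10.41 and 10.25 at E14 (2.63-fold, adjusted p = 9.64e-05). In these genes the ages were separate. With median centring the list's count fell to 9 higher and 4 lower, with a median of 0.22. Outside the list, Clstn2, a synaptic cadherin-like protein, rose 10.3-fold (7.30 ± 0.23 to 10.67 ± 0.20, adjusted p = 1.25e-07), and Stmn4, a relative of Stmn2, 9.14-fold (adjusted p = 1.12e-06). Tafa2, encoding a small secreted protein of neurons, rose from below the floor to 9.92, 9.66, 9.21 and 9.32 (4.43 ± 0.19, adjusted p = 1.25e-07).

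The mean level of the 26 neuronal genes was 10.27 to 10.47 on the E18 arrays, 9.73 to 9.94 on the E14 GFP-high arrays, 10.50 to 10.60 on the Prominin-selected E14 GFP-low arrays and 8.82 to 8.99 on the ungated E14 GFP-high arrays. The E14 GFP-low arrays thus lay above every E18 array in this summed level. The part of neurons or neuronal RNA in the other differences was not tested.

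Synaptic and excitability genes rose in 22 of 33 cases and fell in 3 (median 0.90), where 10.2% and 16.5% of all genes did. Gria2, encoding an AMPA glutamate receptor subunit, read 12.51, 12.17, 12.33 and 12.01 at E18 and 9.96, 9.79, 9.85 and 9.74 at E14 (5.35-fold, adjusted p = 1.48e-06). Scn2a, a voltage-gated sodium channel, read 9.18, 9.15, 8.78 and 9.33 at E18 and 5.67, 5.62, 6.31 and 6.10 at E14 (9.11-fold, adjusted p = 4.90e-07). Gabra2, a GABA receptor subunit, read 8.93, 9.18, 9.12 and 9.05 at E18 and 5.80, 5.65, 5.60 and 5.70 at E14 (3.38 ± 0.15, adjusted p = 1.25e-07). The 4 arrays of each age lay within a unit for these genes. Among transcription factors of cortical layers 8 of 24 rose and 9 fell, where 10.2% and 16.5% of all genes did. The list's median of −0.27 was −0.64 with median centring. Cux2 of upper layers rose 3.99-fold (adjusted p = 2.35e-06) and Mef2c 4.77-fold (adjusted p = 6.47e-06), while Sox5, a factor of early-born projection neurons, fell 4.81-fold (adjusted p = 0.000148). Rnd2, a GTPase and no transcription factor, fell 3.82-fold (adjusted p = 5.78e-05).

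Genes of ventral progenitors and of GABAergic interneurons, which are born in the ventral forebrain and migrate into the cortex, rose in 12 of 19 cases and fell in none (median 1.19). Over all genes, 10.2% rose and 16.5% fell. Dlx1, a homeobox factor of these cells, read 10.09, 10.06, 10.24 and 10.14 at E18 and 5.89, 6.67, 5.99 and 5.82 at E14, a 16.5-fold rise (4.04 ± 0.23, adjusted p = 4.90e-07). Gad1, which makes the transmitter GABA, read 9.54, 9.54, 9.84 and 9.64 at E18 and 6.74, 7.21, 6.47 and 6.02 at E14 (8.16-fold, adjusted p = 3.85e-06). The E18 arrays lay close together for both genes, and the E14 arrays spread more widely.

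Dlx2 rose 5.46-fold (adjusted p = 1.58e-05), and Lhx6, of interneurons from the medial eminence, 4.87-fold (6.27 ± 0.11 to 8.56 ± 0.26, adjusted p = 1.46e-06). Cxcr4, the chemokine receptor that guides their migration, rose 4.56-fold (adjusted p = 7.73e-05). The mean level of the 19 genes was 6.89 to 7.00 at E18 and 5.58 to 5.84 at E14. Of Cajal-Retzius genes, 3 of 10 rose and 4 fell, where 10.2% and 16.5% of all genes did. Reln was 1.94-fold higher (adjusted p = 0.00892), a call lost in 4 of the 21 alternative settings, and Nhlh2 was 3.90-fold lower (adjusted p = 9.46e-05).

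Most markers of cells outside the neural lineage were near the floor at both ages. Of 20 endothelial genes 2 rose and none fell, which for the rises is near the 10.2% of all genes that rose, with mean levels over the list of 5.12 to 5.50 at E18 and 4.91 to 5.20 at E14. They were Ramp2 (0.68 ± 0.18, adjusted p = 0.0128), a call lost with the Gapdh covariate and with a replicate block, and Slco1c1, a thyroid hormone transporter of brain endothelium and astrocytes, which read 7.65, 7.71, 8.54 and 8.19 at E18 and 4.25, 5.53, 4.94 and 4.52 at E14 (3.21 ± 0.29, adjusted p = 7.87e-06), while Pecam1 and Cdh5, named as the defining endothelial markers after their values were seen, lay below the floor in both groups (4.30 and 4.74 at E18). Of 19 microglia and macrophage genes 1 rose, a share called of 5.26% against 26.7% of all genes. It was the protease gene Ctss, at 5.68, 5.72, 6.94 and 7.24 at E18 against 5.06, 5.42, 5.22 and 4.29 at E14 (1.40 ± 0.39, adjusted p = 0.0181). Its call was lost without E18 replicate 4, E18 replicate 5 or E14 replicate 4, and also with the Gapdh covariate, with a replicate block and with E14 replicate 1 alone. Of 11 erythroid genes 2 rose and 1 fell, a share called (27.3%) near the 26.7% of all genes. Alas2, of haem synthesis in red cells, read 5.51, 5.78, 7.12 and 7.25 at E18 and 4.44, 4.28, 5.42 and 4.23 at E14 (1.82 ± 0.39, adjusted p = 0.00368). For Ctss and Alas2, E18 replicates 4 and 5 lay more than a unit above replicates 2 and 3. The mean levels of the pericyte list (4.97 to 5.21 and 5.06 to 5.14) and of the microglia list (4.96 to 5.65 and 4.84 to 5.07) at E18 and E14 also stayed below the floor of 5.69, as did those of 22 genes not expected in brain (4.76 to 4.90 and 4.82 to 5.11). The erythroid list ran from 5.20 to 5.84 at E18, past that floor, and from 5.18 to 5.52 at E14. The part of such cells in the other differences was not tested.

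Genes of glycolysis were mostly lower, with 10 of 17 falling and 3 rising (median −0.93), where 16.5% and 10.2% of all genes did. Ldha, encoding lactate dehydrogenase A, read 10.23, 10.28, 10.26 and 10.29 at E18 and 12.15, 11.58, 11.79 and 11.68 at E14 (2.90-fold, adjusted p = 1.00e-05), and Hk2, encoding a hexokinase, fell 3.15-fold (adjusted p = 9.76e-05). Pfkp, the phosphofructokinase of platelets and brain, was 3.24-fold higher (6.23 ± 0.07 to 7.92 ± 0.12, adjusted p = 1.79e-06). Of 23 ribosomal protein genes, 3 fell and none rose (median −0.08), a share of 13.0% against 26.7% of all genes. Gsta4, a detoxifying glutathione transferase, fell 10.1-fold (adjusted p = 4.79e-07), and Lpar1, a receptor for lysophosphatidic acid in the ventricular zone, 7.55-fold (adjusted p = 7.20e-07).

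**Figure D4:**
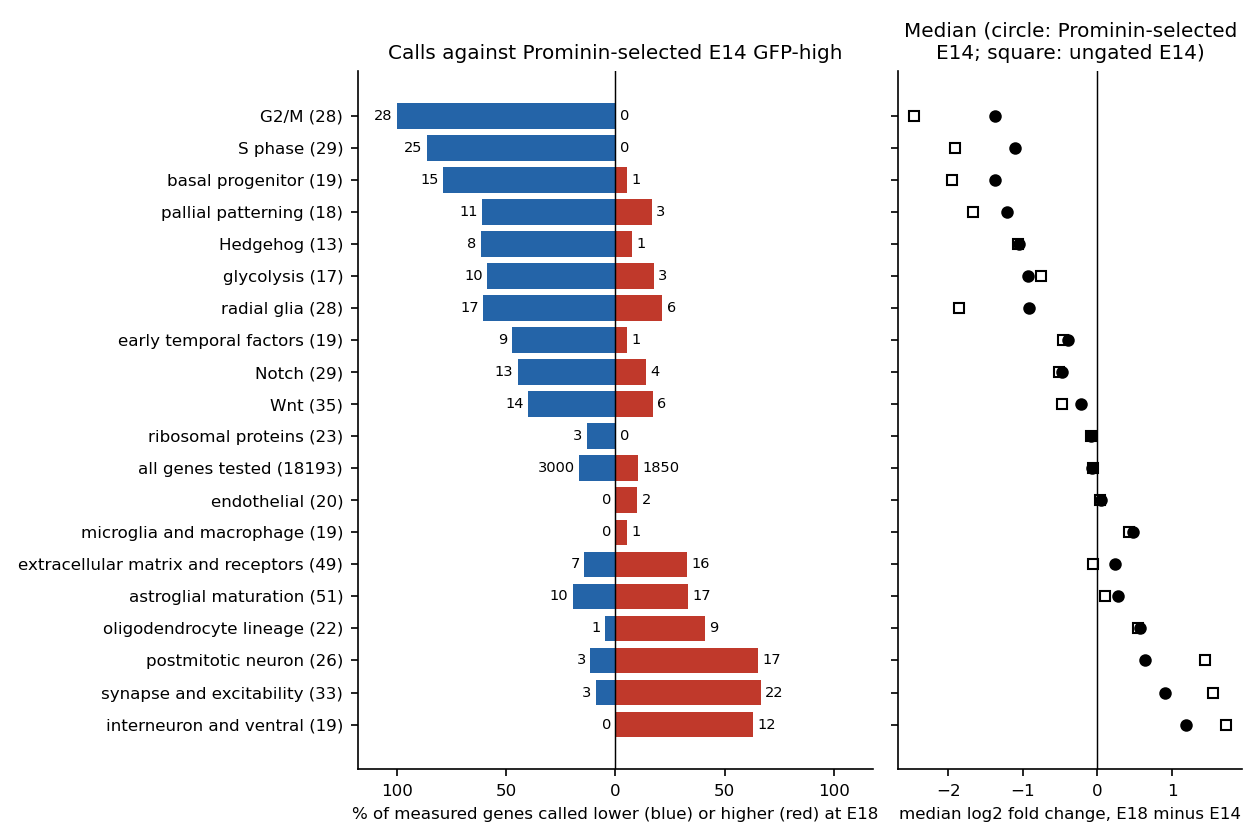
Left, the share of each list's measured genes (number in brackets) called lower (blue, to the left) or higher (red, to the right) at E18, with the counts beside the bars and all 18193 genes for comparison. Right, the median log2 fold change of each list against Prominin-selected (circles) and ungated (squares) E14 GFP-high cells, which reaches −1.38 for G2/M and 1.19 for interneuron and ventral genes against the former.

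The same 4 E18 arrays were also set against the 3 ungated E14 GFP-high arrays, whose 18S and Gapdh control signals lay within or below the E18 range. The comparisons therefore share samples, and their values are given side by side. In the ungated arrays the bioB, bioC, bioD and cre controls reached higher values than at E18. Gate also differs in this reference, as does the labelling kit on 2 of its 3 arrays. In it 2492 genes rose (13.7%) and 3081 fell (16.9%), with a median of −0.06 over all genes. All 28 G2/M genes fell there too, with a median of −2.46 against −1.38, and 13 of 19 interneuron genes rose, with a median of 1.73 against 1.19. Prom1 fell by 2.09 (log2) against the gated and by 1.95 against the ungated E14 cells, and Eomes by 2.26 and 2.30. Olig1 rose by 5.19 and 5.48, Sparcl1 by 2.76 and 2.42, and Slc1a3 by 0.95 and 0.93.

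Other genes had unlike values against the gated and ungated cells, and the difference itself was not tested. Fabp7 was 1.35 ± 0.17 higher than in gated E14 cells but −0.48 ± 0.19 against ungated ones (adjusted p = 0.0687), where the E14 level was 13.36. Cspg5, a neural proteoglycan, was 1.32 ± 0.24 higher against gated and 0.03 ± 0.25 against ungated cells (adjusted p = 0.948), and Cdh2 was 1.34 ± 0.23 and −0.17 ± 0.23 (adjusted p = 0.642). Chd7, a chromatin remodeller, fell by 1.38 against gated cells and was 0.16 ± 0.28 against ungated ones (adjusted p = 0.727), and Cdkn1c fell by 1.16 and was 0.18 ± 0.22 (adjusted p = 0.595). Papola, encoding the poly(A) polymerase, fell by 3.01 against gated cells and by 0.97 against ungated ones (adjusted p = 0.0172), with 1 of 5 probe sets called in the first.

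RNA splicing genes gave unlike counts against the references, and that difference was not tested. Of 34 genes, 13 rose and 4 fell against gated E14 cells (median 0.14), and 3 rose and 17 fell against ungated ones (median −0.46). Of all genes, 10.2% rose and 16.5% fell against gated cells, and 13.7% and 16.9% against ungated ones. With median centring the direction in the gated comparison turned, with 2 higher and 7 lower (median −0.19), so the direction of this list against gated cells depends on the scaling. Srsf5, a splicing factor, was 3.36-fold higher than in gated cells (11.88 ± 0.27 against 10.14 ± 0.34, adjusted p = 4.36e-05) and did not differ past the threshold from ungated cells at 12.30 (adjusted p = 0.141). Khdrbs1, encoding the RNA-binding protein Sam68, behaved likewise, at 11.20 ± 0.05 against 10.10 ± 0.23 in gated and 11.54 in ungated cells (adjusted p = 0.000213 and 0.110). Ptbp1, the splicing repressor of progenitors that falls as neurons form, was lower against both, by 2.27 and 4.11 (adjusted p = 1.77e-06 and 3.01e-10).

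**Figure D5:**
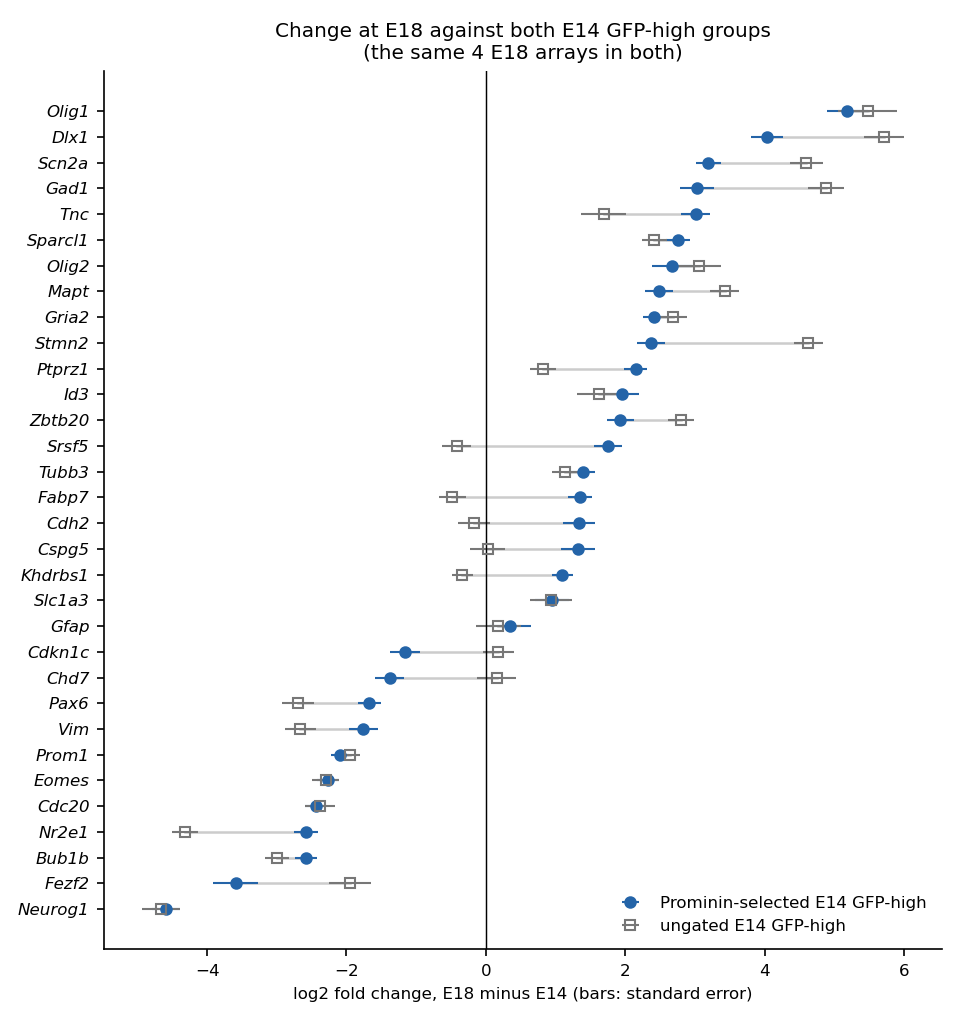
Log2 fold change, E18 minus E14, of 32 genes against Prominin-selected (filled circles) and ungated (open squares) E14 GFP-high cells, with standard errors. The same 4 E18 arrays enter both values, which lie close together for Prom1 (−2.09 and −1.95) and Slc1a3 (0.95 and 0.93) and apart for Fabp7 (1.35 and −0.48).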

How the data were processed

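RNA was measured on 17 Affymetrix mouse expression arrays. The deposited values are linear intensity signals, 1 per probe set, scaled by the authors to a trimmed mean of 150.0 on every array, as the values show, and the summarisation software is not given in the sources used here. Array medians ran from 24.2 to 45.1; how many arrays there are limits the precision. Of 45101 probe sets, 64 controls were left out, and 34945 named 1 gene, 932 several and 9160 none. Deposited intensities were turned into log2(value + 16), which understates changes of dim genes, and were quantile-normalized over the 17 arrays. The probe set with the highest mean stood for each of 18193 genes, of which 9010 had more than 1, and 196 called genes had probe sets called in opposite directions. limma 3.58.1 in R 4.3.3 was fitted with lmFit and eBayes to the 11 Prominin-selected arrays in 3 groups, and to all 17 arrays in 5 groups for the ungated reference. Genes were called at a Benjamini-Hochberg adjusted p under 0.05. The scripts were tested on simulated data.

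Named genes were 8 given genes, the 15 largest rises and falls, and up to 6 called members per list and direction with the lowest p, and exceptions are marked. The members and gene lists were chosen with earlier results of these data known. Same-numbered E18 and E14 arrays did not deviate together (r of 0.027, −0.025 and −0.017), so replicate numbers were not shown to pair the samples. No arrays were identical. Alternatives changed the normalization, pseudocount, arrays fitted, dim genes, probe set rule, array weights, Gapdh covariate and replicate block, and left out each array. Where the normalization, the pseudocount or the set of arrays normalized changed, the probe set of each gene was chosen anew. Comparing E18 with E14 GFP-high replicate 1 alone was added after seeing the data.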

Additional observations from a re-analysis of the deposited data

Results flagged for a closer look

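In 20 of 266 groups of 4 arrays tested, for the genes of the text and the control signals, 1 array stood apart from the other 3 by Dixon's criterion. Chance gives about 1 in 20. Of these, 8 were on E14 GFP-high replicate 1. It was high in Fezf2 (11.63 against 10.99 to 11.08 on the other arrays) and Gadd45g (11.59 against 10.72 to 10.78). It was low in Slc1a3 (7.68 against 8.42 to 8.55), Nrarp (9.53 against 9.85 to 9.91), Ptbp1 (9.18 against 9.53 to 9.58) and Tafa2 (4.78 against 5.17 to 5.22). The same array was low in the log2 difference of 3′ over 5′ signal for the Gapdh control (0.54 against 1.56 to 1.71) and for the Actb control (0.89 against 1.43 to 1.51). Whether the control signals have a part in the gene values was not tested.

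On E18 replicate 3, Tcf7l1 was high (5.98 against 4.62 to 4.67), while Cdh2 (11.19 against 11.37 to 11.39), Ramp2 (6.07 against 6.43 to 6.50) and the dap control (10.04 against 11.32 to 11.44) were low. E18 replicate 4 was high in Rnd2 (9.66 against 9.11 to 9.12) and Sox2 (10.03 against 9.84 to 9.87) and low in Cux2 (10.78 against 11.03 to 11.06). E18 replicate 5 was low in Sox5 (6.14 against 7.41 to 7.57) and Mfng (7.08 against 7.75 to 7.86) and high in the bioD control (12.71 against 12.25 to 12.27). On the E14 side, Boc was low on replicate 2 (8.64 against 8.94 to 8.95) and Eomes high on replicate 4 (12.11 against 12.02 to 12.03). No call of Fezf2, Gadd45g, Nrarp, Ptbp1, Tafa2, Tcf7l1, Cdh2, Rnd2, Cux2, Sox5, Mfng, Boc or Eomes was lost in any alternative setting.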

How the results depend on the processing

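Of the 120 genes named in the text and called, 107 kept direction and call in each alternative setting that measured them (21, or 20 for 6 of the 120). Of the rest, 12 lost the call in at least 1, and Pdgfra reversed with a pseudocount of 1 (−0.63, adjusted p = 0.586), where its probe set was chosen anew. The Gapdh covariate ended 6 of these calls. With a replicate block, 3083 genes were called in place of 4850, 1190 higher and 1893 lower, although the numbers were not shown to pair the arrays. Median centring gave 1088 higher genes, 21.3% of the calls. With E14 GFP-high replicate 1 as the only E14 GFP-high array, assumed to vary like the other groups and added after seeing the data, 3121 genes were called, 1849 of them lower. Leaving out 1 array at a time gave 4028 to 4599 called genes. Against the ungated reference, the replicate block gave 4277 called genes in place of 5573. The causes were not tested. Array number and the brightness of dim probe sets limit what could be called.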
